A study of Mus musculus with 12 samples.

Results

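Adgrl4, an adhesion G protein-coupled receptor of blood vessels, was described here across individual mouse amygdalae together with 9 other genes, 7 of which mark endothelium (Cldn5, Pecam1, Cdh5, Flt1, Kdr, Tek and Esam) and 2 of which encode vascular growth factors (Vegfa and Vegfb). The 10 genes were chosen by name from the 47729 genes of the count table, because Adgrl4 was lower in more anxious mice in these same data, and the question asked was whether that fall followed the vessel content of the tissue. The level of Adgrl4 in the 3 groups therefore selected it, and its group difference is given below as a description, with no test. The same holds for Vegfb, which with Adgrl4 is in the list of 202 genes that the study drew from this contrast. All 10 genes passed the filter on low values, with 206 reads for Tek in one mouse as the smallest count of any of them.

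The mice were 12 female C57/BL6 mice, an isogenic strain, which had been through the elevated plus maze, the light/dark box and the three-chamber social test by 11 weeks of age. Bilateral amygdala was dissected from each brain after removal of the meninges, and 1 library per mouse was sequenced in a single run. The labels gave 3 less anxious mice (3, 7 and 12), 4 anxious mice (1, 4, 8 and 11) and 4 more anxious mice (2, 6, 9 and 10), and mouse 5, which had no group, was left out. These groups were inferred by the study from a principal component of the same expression data, so that no p-value between them is independent of expression. Total counts ran from 31745630 to 45142355 reads over the 11 mice used.

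Brain endothelial cells line the capillaries and form the blood-brain barrier, sealed by tight and adherens junctions. Vascular endothelial growth factor A, made mainly by astrocytes and neurons in brain, acts on endothelial receptors encoded by Kdr and Flt1, while angiopoietins act on the receptor encoded by Tek. Adgrl4, also known as Eltd1, is a member of the latrophilin group of adhesion receptors that is expressed in endothelium and has been studied for its part in vessel sprouting. A piece of brain tissue holds endothelial cells as a small fraction of its cells, and in a bulk library fewer endothelial cells and less RNA of a gene per endothelial cell cannot be told apart.

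Coordinates of the members were taken from GENCODE M21 (mm10). Adgrl4 (ENSMUSG00000039167) lay on the plus strand at chr3:151437887-151545086 with 18 exon blocks, Kdr at chr5:75932827-75978458 and Flt1 at chr5:147561604-147726011, both on the minus strand, and Cldn5 at chr16:18776847-18778262 as a single exon. No other annotated gene overlapped the exons of any of the 10 members. The start regions of 4 genes are shown because they carry the contrast described below: Flt1 and Kdr varied most closely with Adgrl4 from mouse to mouse and Cldn5 least. Each runs from 250 bases before to 50 bases after the RefSeq start site (GRCm38.p6), 5′ to 3′ on the strand of the gene. Capitals mark AGGAAG, the core GGAA of ETS factor sites with a flanking base on each side, read on both strands (CTTCCT on the other). The core with other flanking bases was not marked or counted. The windows are chr3:151437632-151437931 (plus strand) for Adgrl4, chr5:147725962-147726261 (minus strand) for Flt1, chr5:75978406-75978705 (minus strand) for Kdr and chr16:18776597-18776896 (plus strand) for Cldn5.
Adgrl4: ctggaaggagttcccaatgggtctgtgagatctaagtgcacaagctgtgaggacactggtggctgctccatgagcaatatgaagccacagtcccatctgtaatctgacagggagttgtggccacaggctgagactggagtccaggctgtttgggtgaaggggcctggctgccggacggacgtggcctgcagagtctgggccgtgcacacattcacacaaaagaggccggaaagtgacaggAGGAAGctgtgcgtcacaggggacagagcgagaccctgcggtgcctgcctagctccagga
Flt1: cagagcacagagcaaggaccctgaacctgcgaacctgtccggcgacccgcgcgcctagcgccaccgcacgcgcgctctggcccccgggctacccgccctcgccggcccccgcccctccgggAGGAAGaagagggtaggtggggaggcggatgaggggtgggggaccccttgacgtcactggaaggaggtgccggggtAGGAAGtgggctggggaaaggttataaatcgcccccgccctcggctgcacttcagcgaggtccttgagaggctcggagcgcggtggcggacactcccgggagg
Kdr: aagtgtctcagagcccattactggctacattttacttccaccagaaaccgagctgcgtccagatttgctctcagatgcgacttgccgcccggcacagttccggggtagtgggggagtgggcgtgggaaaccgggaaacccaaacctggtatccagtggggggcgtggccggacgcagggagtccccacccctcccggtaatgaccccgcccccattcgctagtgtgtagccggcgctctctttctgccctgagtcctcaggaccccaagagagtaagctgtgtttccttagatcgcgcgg
Cldn5: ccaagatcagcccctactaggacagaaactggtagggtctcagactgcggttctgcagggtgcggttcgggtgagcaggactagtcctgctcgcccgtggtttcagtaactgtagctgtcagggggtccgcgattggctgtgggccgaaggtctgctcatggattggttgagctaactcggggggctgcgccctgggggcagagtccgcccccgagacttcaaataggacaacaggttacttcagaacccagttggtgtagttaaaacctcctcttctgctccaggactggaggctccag
Adgrl4 held 1 match, whose first base lay at position -10 from the start site, and Flt1 held 2, at -129 and -53. Kdr and Cldn5 held 0 in these windows, as did Tek, Vegfa and Vegfb. Of all 32851 RefSeq start regions of this length, 35.4% held at least 1 match, so that its presence is common.

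Levels between genes were compared as CPM, the reads of a gene scaled to the total of its library, per kilobase of annotated exon. On this scale the growth factor gene Vegfb was highest, at 29.8 ± 4.16 (SD, n = 11 mice), and its lowest mouse lay above the highest mouse of every other member. Cldn5, the main claudin of the blood-brain barrier, followed at 15.0 ± 2.24 and Vegfa at 12.98 ± 1.26, and these 2 did not differ beyond their spread. Pecam1 stood at 4.02 ± 3.21, Esam at 3.09 ± 0.546, Adgrl4 at 2.52 ± 1.17, Flt1 at 2.32 ± 0.662, Cdh5 at 1.97 ± 0.395 and Tek at 1.94 ± 0.375, and each of these overlapped its neighbors in the order. Kdr was lowest, at 0.988 ± 0.188. This order depends on the exon length, which was taken over all annotated transcripts of a gene. In CPM alone Kdr averaged 8.92, above Cdh5 at 8.28, and Flt1 averaged 31.3, above Cldn5 at 21.3. On the scale per kilobase Adgrl4 was at the level of the less abundant endothelial genes, with 209 to 1030 reads per library.

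Adgrl4 was at 11.1, 25.8 and 13.6 CPM in less anxious mice 3, 7 and 12. It was at 13.2, 9.59, 12.1 and 9.18 CPM in anxious mice 1, 4, 8 and 11. It was at 10.1, 6.26, 5.83 and 10.2 CPM in more anxious mice 2, 6, 9 and 10. Every more anxious mouse was below every less anxious mouse, although the gap between mice 3 and 10 was small, and the anxious mice overlapped both groups. Group means were 16.8 ± 7.90 (SD, n = 3), 11.02 ± 1.95 (n = 4) and 8.08 ± 2.36 CPM (n = 4). The log2 difference fitted by edgeR, with the first principal component of expression as a covariate, was -1.07 (SE 0.27) between more and less anxious mice, -0.64 between anxious and less anxious mice, and -0.43 between more anxious and anxious mice. Mouse 7 carried much of it, and without that mouse the difference between more and less anxious mice was -0.64 (SE 0.28).

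**Figure D1:**
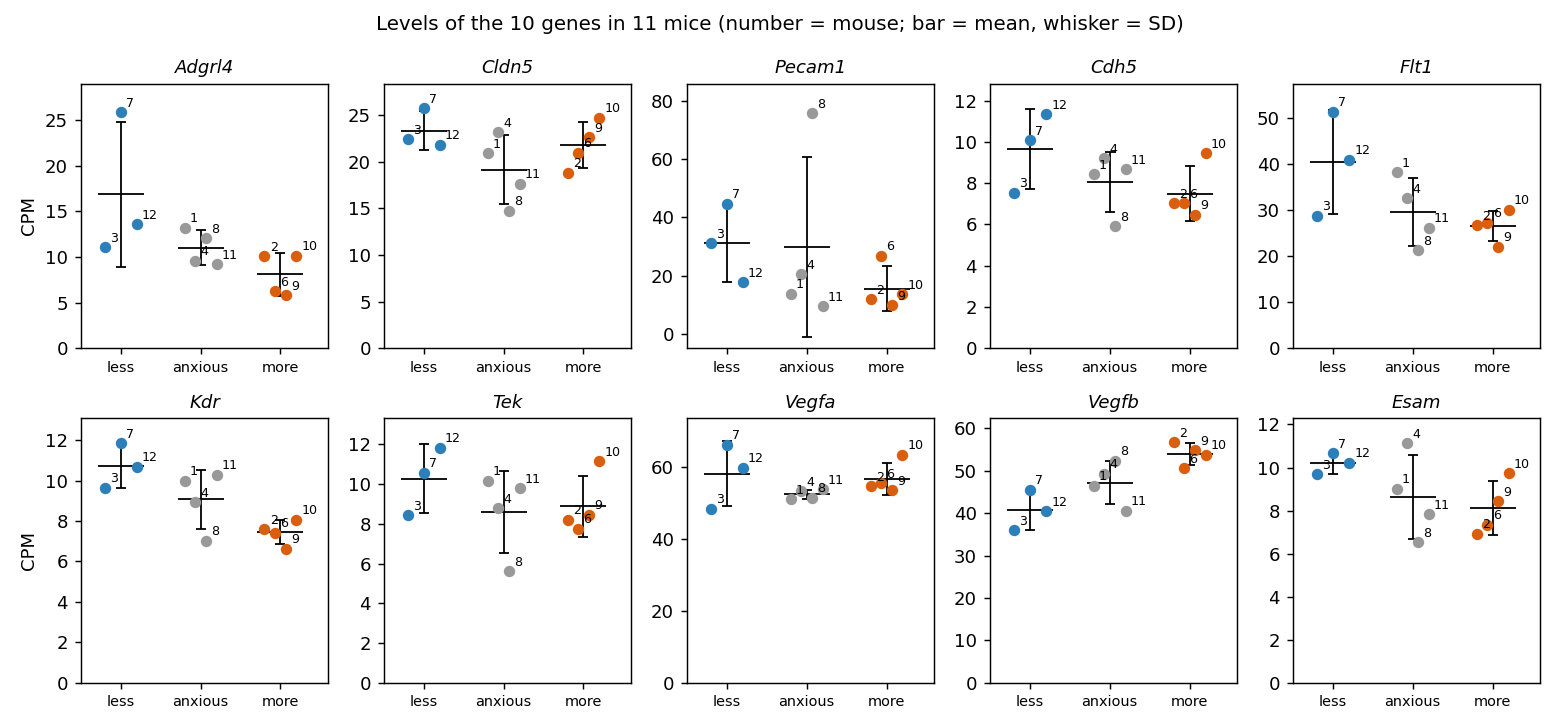
Level of each gene (vertical axis, CPM, linear) in the 11 mice of the 3 groups (horizontal axis: less anxious, anxious, more anxious). Points are mice, labeled by number, with the group mean and SD. Adgrl4 in mouse 7 stood at 25.8 CPM, Pecam1 in mouse 8 at 75.8 CPM, and the group means of Vegfb ran from 40.7 to 54.0 CPM.

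The receptors of the VEGF system had the largest differences after Adgrl4 and Pecam1, and both were lower in more anxious mice. Flt1, which encodes the decoy-like receptor VEGFR-1, was at 28.7, 51.3 and 40.8 CPM in less anxious mice 3, 7 and 12, at 38.1, 32.6, 21.2 and 26.1 CPM in anxious mice 1, 4, 8 and 11, and at 26.7, 27.2, 22.0 and 30.0 CPM in more anxious mice 2, 6, 9 and 10. The less and more anxious groups overlapped only in that mouse 3 lay below mouse 10, and the log2 difference was -0.62 (SE 0.22). Kdr, which encodes VEGFR-2, the main signaling receptor for VEGF-A, was at 9.64, 11.8 and 10.7 CPM in less anxious mice, at 10.0, 8.93, 7.03 and 10.3 CPM in anxious mice, and at 7.60, 7.43, 6.64 and 8.07 CPM in more anxious mice, in the same order of mice. Its less and more anxious groups did not overlap, and the log2 difference was -0.52 (SE 0.15). By edgeR's quasi-likelihood test of the 3 groups the unadjusted p was 0.0405 for Flt1 and 0.0156 for Kdr, and neither passed after Benjamini-Hochberg adjustment over all genes (adjusted p = 0.757 and 0.658). Each p between groups given here, by edgeR or DESeq2, tests the 3 groups together. It does not test the difference between more and less anxious mice alone. Without mouse 7 these differences were -0.37 for Flt1 (unadjusted p = 0.364, edgeR) and -0.36 for Kdr (unadjusted p = 0.104, edgeR).

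The other endothelial members showed smaller differences, apart from Pecam1. Cdh5, the VE-cadherin of adherens junctions, was at 7.53, 10.1 and 11.3 CPM in less anxious mice 3, 7 and 12, at 8.42, 9.20, 5.91 and 8.67 CPM in anxious mice 1, 4, 8 and 11, and at 7.02, 7.04, 6.46 and 9.46 CPM in more anxious mice 2, 6, 9 and 10. The groups overlapped, and the log2 difference between more and less anxious mice was -0.36 (SE 0.20). Esam, an endothelial adhesion molecule, had group means of 10.2 ± 0.485, 8.63 ± 1.96 and 8.11 ± 1.26 CPM and a log2 difference of -0.32 (SE 0.18). Tek, the angiopoietin receptor, had group means of 10.3 ± 1.73, 8.59 ± 2.07 and 8.89 ± 1.53 CPM and a log2 difference of -0.18 (SE 0.19). Cldn5 was at 22.4, 25.7 and 21.8 CPM in the less anxious, at 20.9, 23.2, 14.8 and 17.7 CPM in the anxious and at 18.9, 20.97, 22.7 and 24.7 CPM in the more anxious mice. The less and more anxious mice covered nearly the same range of Cldn5, with a log2 difference of -0.09 (SE 0.15) that turned to 0.0741 without mouse 7. Without mouse 7 the differences of Tek and Esam were -0.0063 and -0.20, and without mouse 12 that of Cdh5 was -0.23. The unadjusted edgeR p of these 4 genes lay between 0.209 for Cldn5 and 0.490 for Tek.

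Pecam1, which encodes the adhesion molecule CD31, was at 31.3, 44.8 and 17.7 CPM in less anxious mice 3, 7 and 12. It was at 13.7, 20.4, 75.8 and 9.54 CPM in anxious mice 1, 4, 8 and 11, and at 11.8, 26.9, 9.79 and 13.7 CPM in more anxious mice 2, 6, 9 and 10. The groups overlapped widely, and the highest mouse was 7.95 times the lowest, against 1.70 to 2.42 times for the other endothelial genes besides Adgrl4. Its fitted log2 difference of -1.44 (SE 0.49) between more and less anxious mice had an unadjusted p of 0.0546 (edgeR), and without mouse 3 it was -0.76. Mouse 8, with the highest Pecam1, was also the mouse with the lowest Cldn5, Cdh5, Flt1, Tek and Esam. Over the 11496 protein-coding genes with a mean of at least 5 CPM, the SD of log2 CPM between mice stood at the 99.6th percentile for Pecam1 and at the 98.0th for Adgrl4.

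Of the ligands, Vegfa had the smallest log2 difference of the 10 members. It was at 48.4, 66.2 and 59.9 CPM in less anxious mice 3, 7 and 12, at 51.2, 53.3, 51.6 and 53.9 CPM in anxious mice 1, 4, 8 and 11, and at 54.8, 55.5, 53.6 and 63.4 CPM in more anxious mice 2, 6, 9 and 10. The groups overlapped, with a log2 difference of -0.05 (SE 0.11, unadjusted p = 0.288, edgeR) that was 0.055 without mouse 7. Vegfb, a ligand of VEGFR-1 but not of VEGFR-2, was the member that was higher in more anxious mice. It was at 36.0, 45.5 and 40.5 CPM in the less anxious, at 46.4, 49.4, 52.4 and 40.6 CPM in the anxious and at 56.7, 50.6, 54.8 and 53.8 CPM in the more anxious mice. The less and more anxious mice did not overlap, and the log2 difference was 0.38 (SE 0.10), which like that of Adgrl4 is given without a test.

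Between less and more anxious mice, 2 of the 10 members did not overlap and were lower in the more anxious (Adgrl4 and Kdr), 1 did not overlap and was higher (Vegfb), and 7 overlapped. Over the 15891 genes with a mean of at least 1 CPM, 4.75% did not overlap in the lower direction and 5.27% in the higher. Among the 8 members that the study's list does not hold, Flt1 and Kdr had an unadjusted p under 0.05 by edgeR, both lower, and DESeq2 added Pecam1 (unadjusted p = 0.0184, adjusted p = 0.335). In the whole fit 2.41% of 26963 genes had such a p and were lower in more anxious mice, and 3.95% had one and were higher. After adjustment 0 of the 10 members were called by edgeR, which called 2 genes in all (0.00742% of those tested). DESeq2's likelihood ratio test, the kind the study used, called 197 of 15107 genes (1.3%) and 1 of the 10 members, Adgrl4, from whose contrast nothing can be read because it selected the gene.

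Whether Adgrl4 differed by more than the other endothelial genes was described with a vessel score, the mean log2 CPM of the 7 endothelial members. The score was 3.84, 4.23 and 3.97 in less anxious mice 3, 7 and 12, 3.77, 3.85, 3.60 and 3.56 in anxious mice 1, 4, 8 and 11, and 3.45, 3.64, 3.41 and 3.77 in more anxious mice 2, 6, 9 and 10. Every more anxious mouse was below every less anxious mouse, as with Adgrl4, and the means differed by -0.45. With Pecam1 left out the score of the other 6 genes overlapped between these groups, at 3.65 to 4.02 in less anxious and 3.43 to 3.76 in more anxious mice, and its means differed by -0.35. On the same log2 CPM scale the mean of Adgrl4 was 3.98 in less anxious and 2.98 in more anxious mice. Adgrl4 was chosen for its difference in this contrast, so that no test between it and either score is drawn from these values.

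With the score of 7 genes as a term of the fit, the log2 difference of Adgrl4 between more and less anxious mice was -0.44 (SE 0.44), 41.1% of the size without it. This remainder changed with the genes in the score, although its SE were wide and the changes were not tested. With Pecam1 left out, which was decided after its values were seen, it was -0.76 (SE 0.30), or 71.4% of the size without a score. With a separate score of 30 brain endothelial genes that share no gene with the members it was -0.74 (SE 0.31). Without both Pecam1 and mouse 7 it was -0.58 (SE 0.30), beside -0.64 without a score and without mouse 7. The difference kept its direction under each of these scores, and its size was reduced most by the score that holds Pecam1.

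**Figure D2:**
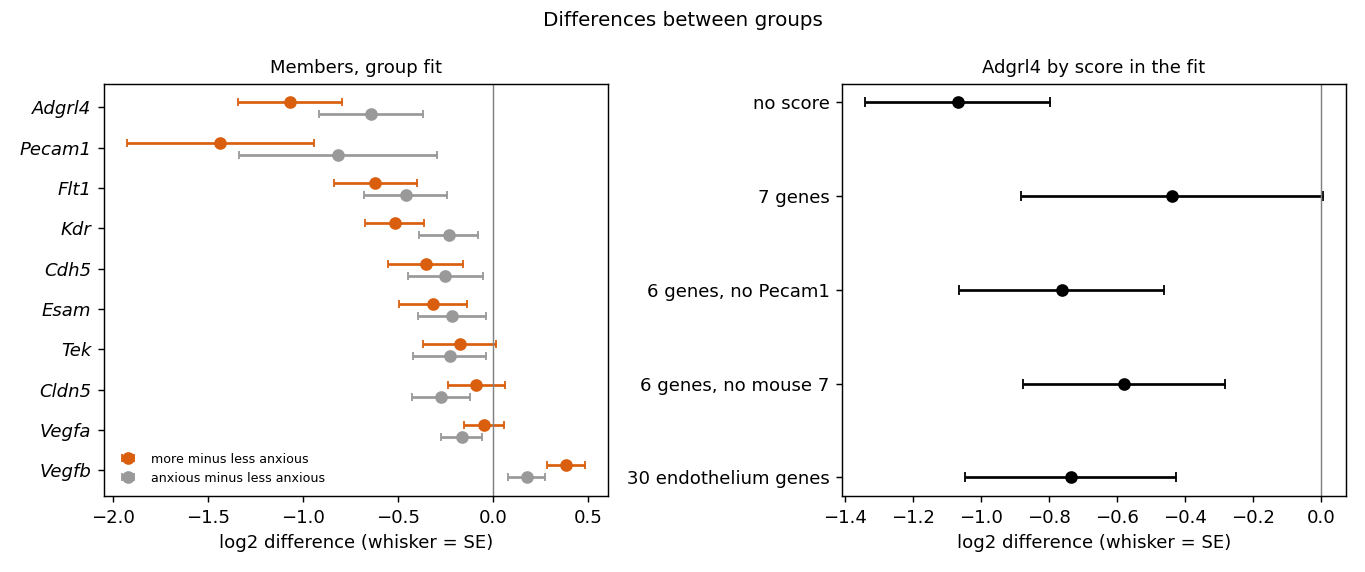
Left, fitted log2 differences (horizontal axis) of the 10 genes between more and less anxious mice and between anxious and less anxious mice, with SE. Right, the log2 difference of Adgrl4 between more and less anxious mice with no score in the fit (-1.07), with the score of 7 genes (-0.44), of 6 genes without Pecam1 (-0.76), of those 6 genes without mouse 7 (-0.58) and of 30 other endothelial genes (-0.74).

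Adgrl4 was also set against the endothelial genes mouse by mouse. For each 100 CPM summed over the 6 endothelial genes other than Pecam1, Adgrl4 stood at 12.8, 21.5 and 12.7 CPM in less anxious mice 3, 7 and 12. It stood at 13.7, 10.2, 19.8 and 11.4 in anxious mice 1, 4, 8 and 11, and at 13.4, 8.05, 7.80 and 10.9 in more anxious mice 2, 6, 9 and 10. The groups overlapped on this scale, since the more anxious mouse 2 lay above the less anxious mice 3 and 12. Mice 7 and 8 were the highest, mouse 7 with a high sum of the 6 genes (120 CPM) and mouse 8 with the lowest (61.1 CPM). More anxious mice 6 and 9 were the lowest.

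Across the 11 mice, Adgrl4 correlated with the vessel score of 7 genes at Pearson's r = 0.800 and Spearman's rho = 0.709, given as a description. The points share their libraries, and the group that selected Adgrl4 is among what they share. With group means subtracted r was 0.576, and without mice 7 and 9, the 2 farthest from the median score, it was 0.405. For the score without Pecam1 r was 0.593, and it was 0.375 when mouse 7 was left out too. For that score the 2 farthest mice were 7 and 8, and without both r was 0.779. For the score of 30 other endothelial genes r was 0.648. The relation to the endothelial genes was therefore positive in each of these forms, but its size depended on mice 7 and 8 and on Pecam1.

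**Figure D3:**
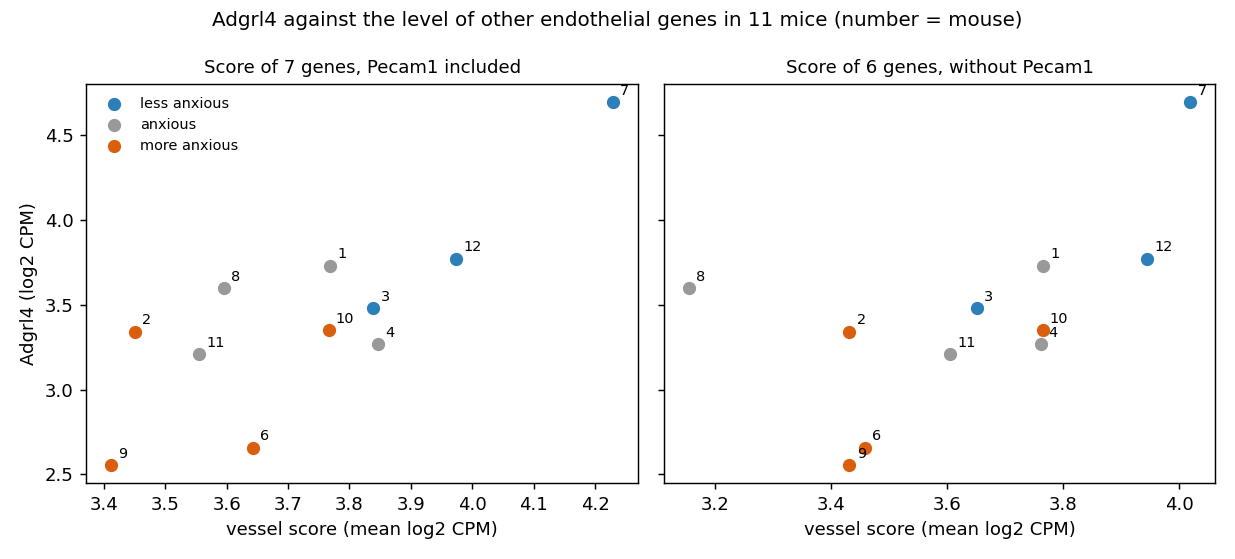
Adgrl4 (vertical axis, log2 CPM) against the vessel score (horizontal axis, mean log2 CPM) with Pecam1 (left, r = 0.800) and without it (right, r = 0.593). Each of the 11 points is a mouse, colored by group. Mouse 7 is at the upper right of both panels, and mouse 8 moves to the far left when Pecam1 is left out.

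Gene by gene, the highest r of Adgrl4 among the 7 endothelial genes were with the VEGF receptors. Its r with Flt1 was 0.769 and its rho 0.645. Its r with Kdr was 0.738 and its rho 0.636. These values are descriptions with no p, since the levels of Adgrl4 in these same mice chose it. Without the 2 mice farthest from the median of each gene these r fell to 0.433 for Flt1 (mice 7 and 12 left out) and 0.434 for Kdr (mice 7 and 9 left out). The size of both relations therefore depended on those mice. Without mouse 7 alone r was 0.559 for Flt1 and 0.612 for Kdr. With group means subtracted, r was 0.614 for Flt1 and 0.383 for Kdr.

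Adgrl4 correlated with Cdh5 at r = 0.538, with Pecam1 at 0.462, with Esam at 0.418, with Tek at 0.333 and with Cldn5 at 0.182. Their rho ran from 0.118 for Cldn5 to 0.527 for Pecam1. Without the 2 farthest mice r rose to 0.725 for Cdh5, 0.654 for Esam, 0.622 for Tek and 0.400 for Cldn5, mouse 8 being among those left out each time, and fell to 0.105 for Pecam1. Without mouse 7 alone the r with Cldn5 was -0.207. Mouse 8 combined low endothelial genes with 12.1 CPM of Adgrl4, within the range of the less anxious mice.

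The endothelial genes other than Adgrl4 and Pecam1 varied together. Over the 15 pairs of the 6 genes, r ran from 0.353 to 0.886 with a median of 0.719, the closest pair being Cdh5 and Tek. Pecam1 correlated with these 6 genes at r between -0.514, with Tek, and 0.105, with Flt1. Pecam1 is a textbook endothelial marker also present on platelets and leukocytes. Its highest level, in mouse 8, came with the lowest level of most other markers. Mouse 7, the next highest in Pecam1 (44.8 CPM), was instead the highest in Cldn5, Flt1 and Kdr. The cause of the spread of Pecam1 was not tested.

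**Figure D4:**
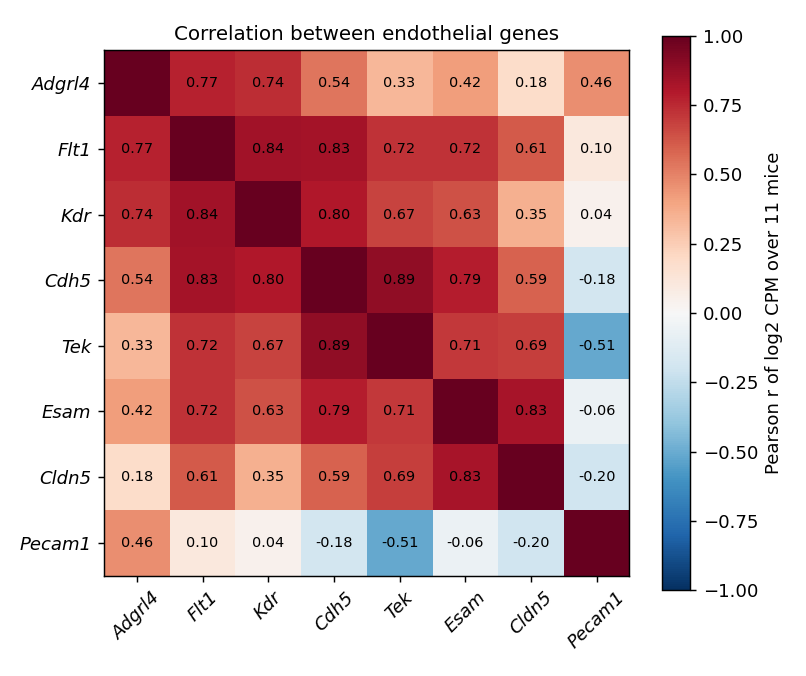
Pearson's r of log2 CPM over 11 mice for each pair of 8 endothelial genes (color and number). The 6 genes from Flt1 to Cldn5 form a block of positive values between 0.35 and 0.89, Adgrl4 shares it mainly with Flt1 (0.77) and Kdr (0.74), and Pecam1 lies outside it.

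Among 13933 other protein-coding genes with a mean of at least 1 CPM, ranked by r with Adgrl4 over the 11 mice, Flt1 stood at rank 34 and Kdr at rank 62. Cdh5 was at rank 680, Pecam1 at 1180, Vegfa at 1349, Esam at 1524, Tek at 2426, Cldn5 at 4532 and Vegfb, with a negative r of -0.34, at 11836. The median r over all these genes was 0.02. The 10 genes most like Adgrl4 were Kdm4c (r = 0.899), which encodes a histone demethylase, Cep170, Nadk2, the astrocytic GABA transporter gene Slc6a11 (0.855), Trim56, Nxn, Fbxo30, the hypoxia-inducible factor gene Epas1 (0.833), which is strong in endothelium and astrocytes, Rp2 and Gosr1 (0.819). Apart from Epas1, none of them is a gene commonly used to mark endothelium. None of the 10 members was among them, and with 11 mice and this many genes such ranks are a description.

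Of 32 brain endothelial genes other than the members, 28 had a negative log2 difference between more and less anxious mice, with a median of -0.29 against 0.00 over all genes tested. In the same direction, 5 had an unadjusted p under the threshold (edgeR), 2 of them in the study's list. Outside that list it was 3 of 30 genes. Of all 26963 genes tested, 2.41% were lower with such a p. After adjustment edgeR called none of them. DESeq2's likelihood ratio test called Itm2a, from which nothing can be read because the study chose that gene by this kind of test on this contrast. The 5 genes were the organic anion transporter gene Slco1a4 (log2 difference -0.54, SE 0.13), the efflux pump gene Abcb1a (-0.55, SE 0.17), Itm2a (-0.44, SE 0.11), the sialomucin gene Podxl (-0.44, SE 0.14) and the adhesion molecule gene Icam2 (-0.84, SE 0.24). Slco1a4 and Itm2a are in the study's list, chosen on this contrast, and are not independent evidence of its direction. Without them, 26 of 30 genes were negative, with a median of -0.24. Each of the 5 genes was lower in every more anxious than in every less anxious mouse, but a low p between these groups is what picked them. Over the 15891 genes with a mean of at least 1 CPM, 4.75% did not overlap in this direction and 5.27% in the other. Elsewhere in the list Cd34 was also lower without overlap, and Sox18 was higher without overlap. Without mouse 7, which also set much of the Adgrl4 difference, 22 of the 32 genes were negative and their median was -0.11. The list's median r with Adgrl4 was 0.37 over the 31 genes that could be ranked, with Podxl (0.680), Icam2 (0.669) and Clec14a (0.655) highest and Sox18 (-0.374) lowest.

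Astrocyte genes differed in the same direction. All 7 had a negative log2 difference, with a median of -0.26, and their median r with Adgrl4 was 0.49, above that of the endothelial list, though the difference between lists was not tested. Without mouse 7 the median difference of the astrocyte list was -0.13, with all 7 genes still negative. The glutamate transporter gene Slc1a3, which is in the study's list, correlated with Adgrl4 at r = 0.809 (rank 16) and had a log2 difference of -0.50 (SE 0.12), and Aldh1l1 correlated at 0.752 (rank 49). All 7 microglial genes were negative too, with a median of -0.20 and a median r of 0.36, and without mouse 7 the median was -0.11 with 6 negative. Of 7 neuronal genes 3 were negative, with a median log2 difference of 0.03 (0.094 without mouse 7) and a median r of -0.21, and Rbfox3, which encodes the nuclear antigen NeuN, was higher by 0.30 (SE 0.10, unadjusted p = 0.0273, edgeR). The part of these other cell types in the Adgrl4 difference was not tested.

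**Figure D5:**
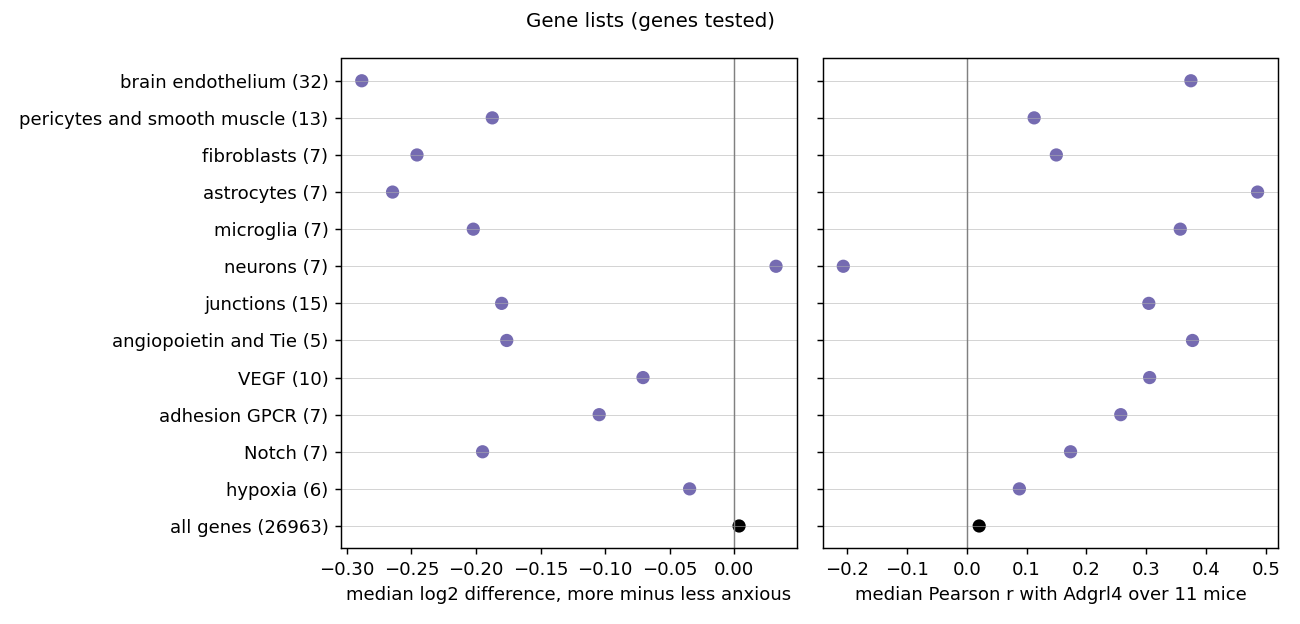
Median log2 difference between more and less anxious mice (left, horizontal axis) and median Pearson r with Adgrl4 over 11 mice (right) for each gene list, with the number of genes tested. The endothelial (-0.29), astrocyte (-0.26) and microglial (-0.20) lists lie left of all genes (0.00) and right of them in correlation (0.37, 0.49 and 0.36), and the neuronal list lies on the other side (0.03 and -0.21).

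Mural and connective tissue genes, which surround vessels, had low median correlations with Adgrl4 from mouse to mouse. Of 13 genes of pericytes and smooth muscle, 12 had a negative log2 difference (median -0.19), and without mouse 7 again 12 of 13 did (median -0.14). Notch3 alone had an unadjusted p under the threshold (unadjusted p = 0.0421 over the 3 groups, edgeR). It differed by -0.27 (SE 0.14) between more and less anxious mice, and by -0.15 without mouse 7. Between anxious and less anxious mice it differed by -0.40 (SE 0.14). The median r of this list with Adgrl4 was 0.11. The 7 fibroblast genes had a median of -0.25 (-0.43 without mouse 7) and a median r of 0.15. Of 6 red blood cell genes 2 were negative, with a summed level of 70.1 to 97.9 CPM in less anxious and 54.5 to 107 CPM in more anxious mice, and the groups overlapped.

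Marker genes checked the labeled tissue. The 5 genes of amygdala nuclei (Rspo2, Prkcd, Tac2, Crh and Ppp1r1b) were all detected, summing to 83.7 to 289 CPM per mouse. Ppp1r1b made up most of the sum at both ends, at 46.6 CPM in mouse 2 and 255 CPM in mouse 12. Rspo2, Prkcd, Tac2 and Crh averaged 5.48 to 15.3 CPM each over the 11 mice. Tac2 had a log2 difference of -0.60 (SE 0.26, unadjusted p = 0.0265, edgeR) that was -0.32 without mouse 7. Choroid plexus genes summed to 16.3 to 24.7 CPM in less anxious and 9.93 to 17.4 CPM in more anxious mice, with the defining marker Ttr at means of 2.66 and 2.13 CPM, and Kcnj13, also in the study's list, at means of 4.20 and 0.458 CPM. Pituitary genes summed to 4.001 to 4.72 CPM in less anxious, 2.81 to 57.7 CPM in anxious and 2.29 to 2.95 CPM in more anxious mice. Cga and Lhb were under the unadjusted threshold over the 3 groups by edgeR, both near the floor. Cga stood at 0.946 and 2.78 CPM in anxious mice 4 and 11, and at 0.109 CPM or less in every other mouse. Lhb stood at 0.184 and 0.604 CPM in mice 4 and 11, and at 0.0899 CPM or less in every other mouse. Prl, Gh and Pomc of this list are in the study's list, chosen on this contrast, and have no test here. These tissues' part in the Adgrl4 difference was not tested.

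Of the 7 adhesion receptor genes listed, 4 had a negative log2 difference, and Adgrl4, which was chosen for its difference, had the largest. The other latrophilins, which act at neuronal synapses, had log2 differences of 0.08 (SE 0.15) for Adgrl1, 0.02 (SE 0.10) for Adgrl2 and -0.10 (SE 0.12) for Adgrl3. Among the other receptors listed, Adgrf5, which is endothelial, differed by -0.39 (SE 0.16, unadjusted p = 0.0589, edgeR), Adgre5 by -0.38 (SE 0.20) and Adgra2, a cofactor of Wnt signaling at the blood-brain barrier, by 0.00 (SE 0.17). The difference between Adgrl4 and its relatives was not tested. Exons of Adgrl1, Adgrl2, Adgrl3, Adgra2 and Adgre5, and of Abcb1a, Cd34, Notch3, Aldh1l1, Kcnj13, Angpt1, Ppp1r1b, Cga and Lhb among the list genes named here, overlap genes on the other strand, and their values are less certain because the strand setting of the counting was not given.

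In the VEGF list, 6 of 10 genes had a negative log2 difference (median -0.07, and 5 of 10 with a median of -0.0048 without mouse 7), and Flt1 and Kdr, described above, were those besides Vegfb with an unadjusted p under the threshold by edgeR. The other ligands were at low levels, with log2 differences of 0.28 (SE 0.21) for Vegfc, 0.58 (SE 0.44) for Vegfd and -0.12 (SE 0.22) for Pgf. The receptor gene of lymphatic vessels, Flt4, differed by -0.25 (SE 0.26), and the coreceptors Nrp1 and Nrp2 by -0.09 (SE 0.34) and 0.10 (SE 0.11). In the angiopoietin list 4 of 5 genes were negative and none had such a p by edgeR, with log2 differences of -0.10 (SE 0.20) for the agonist Angpt1, -0.63 (SE 0.39) for its antagonist Angpt2 and -0.29 (SE 0.19) for the receptor gene Tie1, while Angpt4 was at 0.115 CPM or less on average in each group. Of 15 junction genes all had a negative log2 difference, with a median of -0.18 (14 of 15 and -0.20 without mouse 7), and none had an unadjusted p under the threshold by edgeR, while by DESeq2 Pecam1 did. In the Notch list 5 of 7 genes were negative. Hes1 (0.75, SE 0.22, also in the study's list) and Notch4 (0.89, SE 0.43, and 0.58 without mouse 3) were higher in more than in less anxious mice. Notch4 had an unadjusted p of 0.0456 over the 3 groups (edgeR), and its largest difference was between anxious and less anxious mice (1.25, SE 0.43). Among hypoxia genes Arnt was higher (0.33, SE 0.09, unadjusted p = 0.00992, edgeR) while Epas1 differed by -0.21 (SE 0.11).

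Behavior offered a comparison that did not use the group labels, but it is not independent of them. The study took its groups from a component that it picked for a high correlation with plus maze and light/dark measures. Slopes of Adgrl4 and Vegfb, chosen on those groups, are therefore no independent test. For 1 SD of open-arm time in the plus maze, 9.49 percentage points, Adgrl4 differed by 0.20 on the log2 scale (SE 0.17, unadjusted p = 0.266, edgeR). For total maze entries the slope was 0.10 (SE 0.18, unadjusted p = 0.586), for distance in the light 0.03 (SE 0.20, unadjusted p = 0.891), for time in the light 0.00 (SE 0.22, unadjusted p = 0.991) and for the social box to zone ratio over the full test -0.07 (SE 0.18, unadjusted p = 0.692, all by edgeR). Each of the 5 slopes of Adgrl4 lay within 2 SE of 0. Of the 10 members and 5 measures, 1 slope had an unadjusted p under the threshold, that of Vegfb on distance in the light (-0.12, SE 0.05, unadjusted p = 0.0308, edgeR), and its adjusted p was 0.848. After adjustment neither edgeR nor DESeq2 called any member for any of the 5 measures. Over all genes 5.84% had such a p for open-arm time, 6.97% for entries, 5.8% for light distance, 3.55% for light time and 8.05% for the social ratio. The vessel score of 7 genes correlated with open-arm time at r = 0.514, the score of 6 genes without Pecam1 at 0.271 and Adgrl4 at 0.218, all given as a description over 11 mice.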

How the data were processed

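Amygdala RNA of 12 mice was sequenced as stranded mRNA libraries with single-end reads of 75 bases. The authors trimmed reads with cutadapt, quantified them with Salmon and summarized transcripts to genes with tximport (mm10; versions and annotation release not given in the sources used here), and deposited estimated counts per gene, all of which were whole numbers in the table. Salmon splits reads that several transcripts share. Gene names came from GENCODE M21, which held 99.1% of the 47729 identifiers.

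The members and gene lists were chosen with earlier results of these data known. Groups and behavior were taken from the labels. Counts of 11 mice were normalized with TMM, genes with at least 10 reads in total were kept (26963), and the 3 groups were tested with edgeR's quasi-likelihood test (edgeR 4.0.16 in R 4.3.3) with the first principal component of variance-stabilized counts (20.2% of variance) as a covariate, as the study's design had it, at an adjusted p of 0.05 by Benjamini-Hochberg. Behavior slopes were fitted to standardized measures without a covariate. Log2 CPM used a prior count of 2. DESeq2 1.42.0 was an alternative. Correlations between genes used 100000 permutations, two-sided. The test script was tested on simulated data. Genes named outside the members were the 10 most correlated with Adgrl4, list genes with an unadjusted p under 0.05, and every gene of the adhesion receptor, VEGF and angiopoietin lists. One gene that this rule would name, and the list that holds it, are not reported here. The 5 amygdala genes and Ttr were named as checks of the tissue, and Cd34, Clec14a, Sox18, Aldh1l1 and Epas1 among the list genes were named for their correlation or level after it was seen. Each mouse gave 1 library, so that the spread between mice is biological and technical together. No 2 libraries agreed within sampling noise. Depth gave every member at least 206 reads per mouse.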

Additional observations from a re-analysis of the deposited data

Results flagged for a closer look

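In groups of 4 mice, the gap of the highest or lowest mouse to its neighbor was compared with the range of the group for the 10 genes, the vessel score and the difference of Adgrl4 from the score, in anxious and in more anxious mice (24 comparisons, of which chance flags about 1 in 20). Pecam1 in anxious mouse 8, at 75.8 CPM, stood apart, its gap being 0.835 of the range, which passed the 95% critical value of Dixon's test. The other 23 comparisons did not pass. The same library had the lowest summed level of the other 6 endothelial genes, 61.1 CPM, and the cause of its Pecam1 level was not tested.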

How the results depend on the processing

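Groups and behavior could be fitted in several ways. The count of genes called between groups (2) was 9 with no filter on low counts, 0 with at least 1 CPM in 3 mice, 0 without the principal component, 22 with the groups as a number, 197 with DESeq2's likelihood ratio test, and 0 to 4 with 1 mouse left out. The counts for behavior (0 for open-arm time, entries and light distance, 2 for light time, 6 for the social ratio) were 43, 45, 26, 15 and 111 with DESeq2's likelihood ratio test. With no filter they were 1 for open-arm time, 4 for light time and 10 for the ratio, with at least 1 CPM in 3 mice 0 for light time and 0 for the ratio, with the principal component 0 for light time and 2 for the ratio, and with DESeq2 size factors 1 for open-arm time. The cause of these changes was not tested. The log2 difference of Adgrl4 ran from -1.25 without mouse 10 to -0.64 without mouse 7, and with the vessel score in the fit from -0.74 to -0.28. Its correlation with the vessel score (0.800) was 0.648 with the score of 30 genes, 0.576 with group means subtracted, 0.593 without Pecam1, 0.375 without Pecam1 and mouse 7 (both added after the data were seen), and 0.594 to 0.844 with 1 mouse left out. By an adjusted permutation p, which is no independent test because the levels of Adgrl4 chose it, 2 relations of Adgrl4 to single endothelial genes passed, against 0 with group means subtracted and 0 to 3 with 1 mouse left out. The slope of Adgrl4 on the social ratio turned to 0.0152 with the principal component as a covariate. With 1 mouse left out the difference of Cldn5 ran from -0.155 to 0.0741 and that of Vegfa from -0.143 to 0.055, the latter ends without mouse 7. In fits added after the data were seen, without mouse 7 or without mouse 8, the median of the adhesion receptor list ran from -0.127 to 0.0241 and that of all genes from -0.00369 to 0.00523. DESeq2 size factors moved the median log2 difference of all genes by -0.00148. Each member had at least 206 reads in every mouse, so that 3 or 4 mice a group limit the precision more than depth does.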
